A study of Mus musculus with 6 samples.

Results

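Expression of 8 genes known from mouse primordial germ cells was compared between embryonic stem cells (ESCs) and epiblast-like cells (EpiLCs). The genes were chosen by symbol, with earlier results of these data known, and comprise the receptor gene Kit, the transcription factor genes Prdm1, Prdm14 and Tfap2c, the RNA-binding protein genes Nanos3 and Dnd1, and the membrane protein genes Ifitm1 and Ifitm3. All 8 were present among the 24736 genes of the deposited table. Every one of them was lower in EpiLCs, where 22.8% of all tested genes were significantly lower. The falls ran from 1.88-fold for Dnd1 to 105-fold for Prdm14, where the latter rests on 11 counts in all EpiLC libraries together. The call for Ifitm3 depends on single libraries in fits without a block for the replicate number. Levels are given in TPM, a measure of transcript abundance scaled for gene length and library size. In mean TPM, the genes kept from 0.998% (Prdm14) to 55.2% (Dnd1) of their ESC level.

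Primordial germ cells are the founders of sperm and eggs, and in the mouse they arise from a few cells of the post-implantation epiblast that receive BMP and WNT signals. The transcription factors encoded by Prdm1, Prdm14 and Tfap2c act together in these cells to silence somatic genes and restore pluripotency genes, and Nanos3, Dnd1 and Kit are needed for their survival. EpiLCs are a culture state resembling that epiblast, and such cells are known as a starting point from which germ cell-like cells can be induced with BMP. Several of these genes are also expressed in naive ESCs, where Prdm14 helps to maintain the naive state.

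RNA was sequenced from 3 biological replicates of ESCs at 0 h and 3 biological replicates of EpiLCs at 48 h, the time given in the labels and in the study's account of this differentiation, although its culture methods also describe a longer period for EpiLCs. All 6 libraries came from the XY HM1 TetON line, labelled wild-type, which carries the rtTA transactivator at the Rosa26 locus, so they represent 1 cell line. ESCs were grown in 10% serum with 1000 U/ml LIF on a layer of inactivated embryonic fibroblasts (feeders). EpiLCs were made from ESCs that had been separated from the feeders by adhesion, and were kept in serum-free N2B27 medium containing LGK974 (5 µM), an inhibitor of WNT secretion, and bFGF (10 ng/ml). No BMP was listed among the additions, so these are cells before any germ cell induction. Serum, LIF, feeders, FGF, LGK974 and time changed together and cannot be told apart.

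The groups matched their labels. All 6 naive ESC markers on the list used were lower and all 6 epiblast markers higher in EpiLCs. Their summed TPM was 1460 to 1940 in ESCs against 47.1 to 67.3 in EpiLCs for the naive markers, and 328 to 469 against 2220 to 2290 for the epiblast markers. Depth ranged from 16967741 expected counts in ESC replicate 2 to 35096210 in EpiLC replicate 1. ESC replicate 2 stood apart by its fibroblast markers, which summed to 2360 TPM over 15 genes, against 572 and 263 TPM in ESC replicates 1 and 3 and 208 to 248 TPM in EpiLCs. EpiLC replicate 3 stood apart by primitive streak markers, which summed to 50 TPM over 8 genes against 9.10 and 9.33 TPM in EpiLC replicates 1 and 2.

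The quasi-likelihood test of edgeR was applied to ESCs against EpiLCs over 14468 genes left by its low-count filter. All p-values given are adjusted by the Benjamini-Hochberg method over all of these genes, and log2 fold changes are EpiLC minus ESC. All 8 germ cell factors passed the filter, of which Prdm14 and Nanos3 passed only through their ESC counts, having fewer than 10 counts in every EpiLC library. At an adjusted p of at most 0.05, 8 of 8 were lower and 0 were higher in EpiLCs, where 22.8% of all tested genes were lower and 22.6% higher. The count was 7 of 8 without ESC replicate 3, EpiLC replicate 1 or EpiLC replicate 2, Ifitm3 being the gene lost. At an unadjusted p under 0.05, 0 were higher as well, with edgeR and with DESeq2. Without Prdm14 and Nanos3, 6 of the remaining 6 were lower. For 7 of the 8, each ESC library lay above each EpiLC library in TPM, as for 25.6% of all tested genes. The median log2 fold change of the 8, with Prdm14 and Nanos3 included, was -3.24, beside -0.0017 for all tested genes. The other 6 ran from -4.07 (Prdm1) to -0.91 (Dnd1). Since the libraries are bulk RNA, fewer expressing cells and less RNA per cell cannot be told apart.

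**Figure D1:**
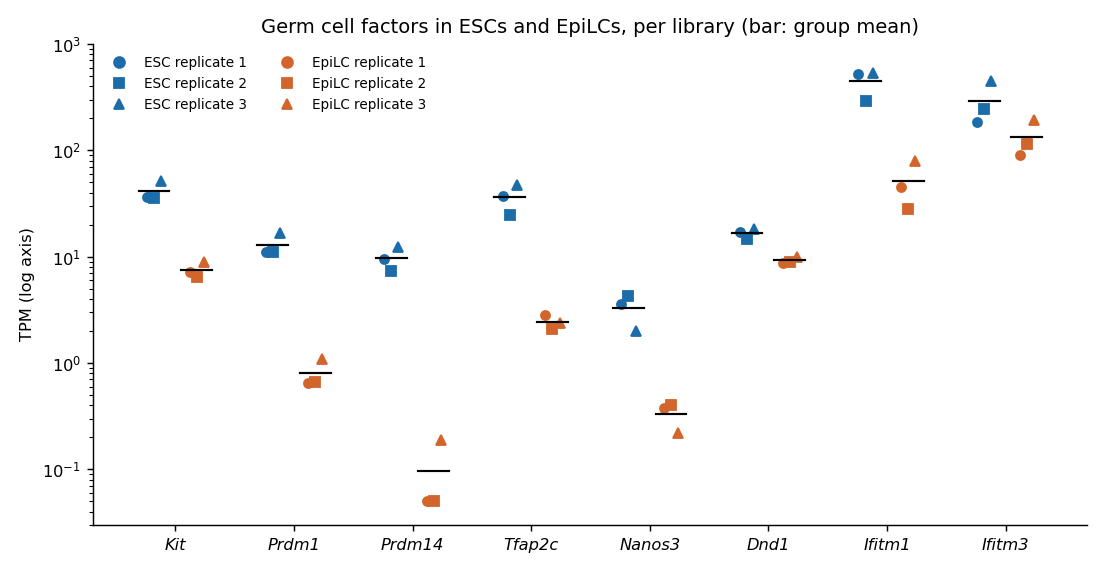
TPM of each germ cell factor in every library on a log axis, with ESCs in blue, EpiLCs in orange, symbols for the replicates and a bar for each group mean. The groups are separate for all genes shown except Ifitm3, whose EpiLC replicate 3 (191 TPM) lies above ESC replicate 1 (186 TPM).

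Kit encodes the receptor tyrosine kinase for stem cell factor and lies on chromosome 5 (75574987 to 75656722 on GRCm38, the assembly also called mm10). In ESC replicates 1, 2 and 3 its level was 36.6, 35.8 and 51.4 TPM, against 7.11, 6.48 and 8.88 TPM in the EpiLC replicates in the same order, which is kept for all genes. The lowest ESC library was well above the highest EpiLC library. Kit fell by 2.52 on the log2 scale (SE 0.20, adjusted p = 0.000206), leaving 18.1% of its ESC level. The gene of its ligand, Kitl, did not pass the test, with 7.81, 8.85 and 4.52 TPM in ESCs, 6.19, 5.00 and 7.14 TPM in EpiLCs, and a log2 fold change of -0.25 (SE 0.26, adjusted p = 0.452). Kitl was highest in ESC replicate 2, the library with the most fibroblast RNA, and the part of fibroblasts in it was not tested. Among other receptors of the same kinase class, Pdgfra fell (-3.91, adjusted p = 0.000820) from 6.76 to 16.8 TPM in the ESC libraries to under 1 TPM. It is also listed among 8 primitive endoderm markers, of which 6 were lower and whose sum was 40.2 to 73.7 TPM in ESCs and 11.2 to 11.5 TPM in EpiLCs. Both were highest in ESC replicate 1, without which Pdgfra was at -3.31, and the part of such cells was not tested. Pdgfrb, also on the fibroblast list, fell (-2.92, adjusted p = 0.00933), from 7.23, 22.0 and 3.85 TPM in ESCs to at most 1.75 TPM. Flt3 rose (2.62, adjusted p = 0.00360) but stayed at or below 0.710 TPM. Outside that class, Kdr, the VEGF receptor, fell by 4.54 on the log2 scale (adjusted p = 0.00136), from between 3.72 and 14.0 TPM in ESCs to at most 0.5 TPM (-3.83 without ESC replicate 1). Some blood and endothelial cells also express Kit. The summed level of 8 markers of these cells was 34.7 to 48.6 TPM in ESCs and 10.1 to 10.7 TPM in EpiLCs, and of 7 tested 4 fell, 1 rose and 2 did not pass the test. Those that fell were Pecam1 (-2.82, adjusted p = 0.000338), Cdh5 (-2.11, adjusted p = 0.0134, lost without EpiLC replicate 1 at 0.0561), Runx1 (-2.10, adjusted p = 0.00650) and Gata1 (-1.78, adjusted p = 0.00684). Lmo2 rose (1.2, adjusted p = 0.0174), a call lost without any 1 of the EpiLC replicates (adjusted p from 0.0514 to 0.0644). Of the ESC sum, 23.9 to 41.0 TPM came from Pecam1, which naive ESCs also express, while the endothelial gene Cdh5 was at 0.32 to 0.77 TPM in ESCs and the blood gene Ptprc at or below 0.120 TPM in every library. The part of such cells in the fall of Kit was not tested.

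Prdm14 encodes a zinc finger protein that promotes naive pluripotency in ESCs and germ cell fate in the embryo (chromosome 1, 13113428 to 13127163). ESC libraries held 9.55, 7.30 and 12.2 TPM of it, and EpiLC libraries 0.05, 0.05 and 0.19 TPM. These EpiLC values rest on 2, 2 and 7 counts, so Prdm14 was close to the limit of detection after 48 h. Its log2 fold change of -6.71 (SE 0.48, 95% confidence interval -7.85 to -5.58, adjusted p = 0.000156) ran from -7.60 without EpiLC replicate 3 to -6.38 when other single libraries were left out. Summed over libraries, 828 ESC counts stood against 11 EpiLC counts, which at these depths is a ratio of 111 with an exact 95% interval of 61.8 to 223 that covers counting error only.

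Prdm1, also called Blimp1, encodes the repressor that silences somatic genes at the onset of germ cell fate (chromosome 10, 44437174 to 44528558). It was at 11.01, 11.06 and 16.83 TPM in ESCs and at 0.650, 0.660 and 1.10 TPM in EpiLCs. Replicate 3 was the highest library in both groups, and the groups were more than 10 TPM apart in mean level, at 13 ± 3.35 against 0.803 ± 0.257 TPM (SD, n = 3 each). The log2 fold change was -4.07 (SE 0.30, adjusted p = 0.000162). Tfap2c encodes AP-2γ, a partner of both PRDM proteins in germ cell precursors that also acts in trophoblast (chromosome 2, 172545678 to 172558622). It was at 37.2, 24.9 and 47.4 TPM in ESCs and at 2.82, 2.07 and 2.38 TPM in EpiLCs. In ESCs it was thus expressed at a higher level than either Prdm gene, and after 48 h it kept 6.64% of that level. Tfap2c fell by 3.96 on the log2 scale (SE 0.27, adjusted p = 0.000140). The summed level of 8 trophoblast markers was 63.6 to 147 TPM in ESCs and 20.4 to 28.2 TPM in EpiLCs, and of 6 tested 3 fell, 1 rose and 2 did not pass the test. Those that fell were Eomes (-3.32, adjusted p = 0.00137), which is shared with the primitive streak and made up 45.1 to 115 TPM of the ESC sum, Gata3 (-3.57, adjusted p = 0.00187), from 4.92, 2.91 and 1.55 TPM to 0.27, 0.18 and 0.37 TPM, and Hand1 (-1.44, adjusted p = 0.0497), whose call was lost in 8 of 14 alternatives. Krt7 rose (1.80, adjusted p = 0.00171). Tpbpa was at 0 in all libraries and Elf5 at or below 0.0700 TPM. The part of trophoblast-like cells in the fall of Tfap2c was not tested.

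The fall was not shared by all relatives of these factors. Of 28 relatives of the germ cell factors fixed as a list, 20 were tested, of which 7 were lower, 3 were higher and 10 did not pass the test, with a median log2 fold change of -0.23. Of all tested genes, 22.8% were lower and 22.6% higher. Among the 3 that were higher, Tfap2e had 11, 3 and 8 counts in the ESC libraries and Flt3 had 2, 3 and 5. Flt3 passed the filter only through its EpiLC counts. Within the PRDM family, Prdm6 fell by 4.68 on the log2 scale (SE 0.61, adjusted p = 0.00131) from between 4.83 and 13.4 TPM in ESCs (-5.33 without EpiLC replicate 1), and Prdm16 fell by 1.86 (adjusted p = 0.00866). Prdm11 rose (1.11, adjusted p = 0.0337), a call lost without ESC replicate 3 or any 1 of the EpiLC replicates (adjusted p from 0.0553 to 0.116), and Prdm2 and Prdm4 did not pass the test, with log2 fold changes of -0.11 and -0.12 (adjusted p = 0.149 each) at levels of 21.4 to 41.8 TPM in all libraries. Among AP-2 genes, Tfap2a fell (-1.09, adjusted p = 0.0144, but 0.0669 and 0.0582 without EpiLC replicates 1 and 2) and Tfap2e rose (2.34, SE 0.39, adjusted p = 0.00363), from 0.510, 0.180 and 0.280 TPM to 1.63, 2.21 and 1.39 TPM. In EpiLCs, the TPM ranges of Tfap2e and of what remained of Tfap2c (2.07 to 2.82) overlapped. Nanos1 was at 2.59 to 2.73 TPM in ESCs and 2.18 to 2.89 TPM in EpiLCs (-0.09, adjusted p = 0.707), and Nanos2 was at or below 0.05 TPM throughout and was not tested.

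Nanos3 encodes a zinc finger RNA-binding protein that protects migrating germ cells from death (chromosome 8, 84173733 to 84176552). It was the lowest of the 8 in ESCs, at 3.57, 4.28 and 1.99 TPM, which rest on 24, 22 and 18 counts. In EpiLCs it was at 0.380, 0.400 and 0.220 TPM, or 4, 4 and 2 counts. The groups did not overlap, but the level was close to the limit of detection and the ESC libraries differed among themselves by 2.15-fold. Nanos3 fell by 3.29 on the log2 scale (SE 0.44, adjusted p = 0.00147), and the ratio of summed counts was 9.44 with an exact 95% interval of 4.82 to 20.6, which covers counting error only and not the spread between libraries. Unlike the other 7 genes, its highest ESC library in TPM was replicate 2 and its lowest replicate 3, which is the order of the fibroblast markers. At 24, 22 and 18 counts this order is uncertain, and how many of all tested genes share it was not counted. Without ESC replicate 2, its log2 fold change was -3.08 (adjusted p = 0.00290). The part of fibroblast RNA in its ESC level was not tested.

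Dnd1 encodes an RNA-binding protein of the germ line (chromosome 18, 36763671 to 36766214). It was at 17.04, 14.77 and 18.26 TPM in ESCs and at 8.78, 8.93 and 9.92 TPM in EpiLCs. It had the tightest replicates of the 8 in both groups, with a coefficient of variation of 10.6% in ESCs and 6.73% in EpiLCs. Dnd1 fell by 0.91 on the log2 scale (SE 0.15, adjusted p = 0.00319), so that 55.2% of its ESC level remained, the largest share among the 8.

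**Figure D2:**
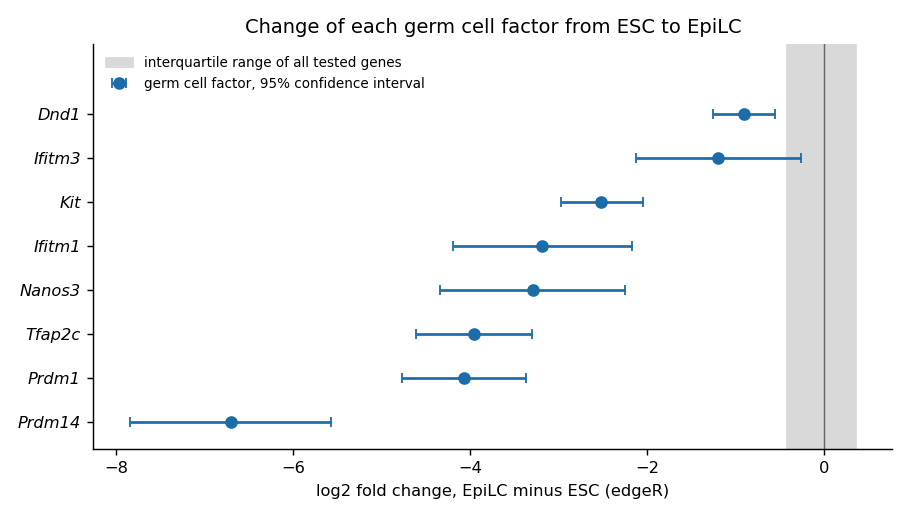
Log2 fold change from ESC to EpiLC of each germ cell factor (points) with its 95% confidence interval (bars), over the interquartile range of all tested genes (grey, -0.42 to 0.36). Intervals for all but Ifitm3, whose interval ends at -0.26, lie below that range.

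Ifitm1 and Ifitm3 encode small interferon-inducible membrane proteins that mark early germ cells and are also known for antiviral activity. Both lie in a gene cluster on chromosome 7 together with Ifitm2, Ifitm1 from 140967429 to 140969827, Ifitm2 from 140954837 to 140959686 and Ifitm3 from 141009590 to 141010744. Their promoters are shown because the 3 neighbours differed in how far they changed, and because the genes are known for their response to interferon. The windows run from 250 bases before a RefSeq start to 30 bases from it (RefSeq, GRCm38.p6), at chr7:140967826-140968105 on the plus strand for Ifitm1, chr7:140955932-140956211 on the minus strand for Ifitm2 and chr7:141010715-141010994 on the minus strand for Ifitm3. The start used is the outer end of the gene span for Ifitm3 but lies inside the span for Ifitm1 and Ifitm2. Capitals mark the core of the interferon-stimulated response element, spelled GAAA, any 2 bases and GAAA, searched on both strands.
Ifitm1: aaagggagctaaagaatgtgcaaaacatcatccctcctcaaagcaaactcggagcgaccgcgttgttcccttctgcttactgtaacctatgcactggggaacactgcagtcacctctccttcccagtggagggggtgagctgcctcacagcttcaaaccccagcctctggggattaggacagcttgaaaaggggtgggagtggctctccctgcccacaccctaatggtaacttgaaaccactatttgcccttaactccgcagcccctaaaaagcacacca
Ifitm2: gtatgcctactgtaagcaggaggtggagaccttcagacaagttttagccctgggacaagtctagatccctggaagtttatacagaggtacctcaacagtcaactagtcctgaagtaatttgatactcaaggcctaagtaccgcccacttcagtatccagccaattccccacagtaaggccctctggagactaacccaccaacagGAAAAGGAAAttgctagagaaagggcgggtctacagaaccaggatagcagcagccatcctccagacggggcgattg
Ifitm3: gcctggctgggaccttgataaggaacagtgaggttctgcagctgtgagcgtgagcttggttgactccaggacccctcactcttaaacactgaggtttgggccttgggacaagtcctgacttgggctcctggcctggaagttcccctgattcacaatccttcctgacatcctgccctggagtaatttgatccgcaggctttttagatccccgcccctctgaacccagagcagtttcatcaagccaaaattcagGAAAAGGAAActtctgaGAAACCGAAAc
The Ifitm2 window holds 1 match, from 46 to 37 bases before the start, and the Ifitm3 window holds 2, at bases 3 to 12 and 20 to 29 from the start. The Ifitm1 window holds none. Of 32851 RefSeq windows of 300 bases, 3.44% hold a match, and a match is a description of the letters only.

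In the ESC replicates, Ifitm1 was at 526, 294 and 533 TPM, the highest mean level of the 8 genes. In EpiLCs it was at 45.3, 28.1 and 80.2 TPM. All EpiLC libraries were far below the lowest ESC library, although replicate 2 was the lowest library in both groups. Ifitm1 fell by 3.19 on the log2 scale (SE 0.43, adjusted p = 0.00144), leaving 11.3% of its ESC level. Ifitm3 was at 186, 244 and 445 TPM in ESCs and at 90.2, 115 and 191 TPM in EpiLCs. Replicate 3 was the highest in both groups, and EpiLC replicate 3 lay above ESC replicate 1, so that the groups overlapped. The log2 fold change of Ifitm3 was -1.20 (SE 0.40, adjusted p = 0.0444). In fits without a block for the replicate number, this call rests on single libraries. It was lost without ESC replicate 3 (-0.73, adjusted p = 0.104), without EpiLC replicate 1 (-0.98, adjusted p = 0.136) and without EpiLC replicate 2 (-1.09, adjusted p = 0.132). With the replicate number as a block, Ifitm3 was at -1.17 (SE 0.08, adjusted p = 0.000677, edgeR). The labels do not say whether same-numbered libraries belong together.

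Ifitm2, the neighbour of Ifitm1 that is not among the 8 germ cell factors, was at 648, 581 and 798 TPM in ESCs and at 382, 373 and 368 TPM in EpiLCs. It fell by 0.91 on the log2 scale (SE 0.12, adjusted p = 0.00142). The make-up of the 3 genes' summed TPM thus shifted. Ifitm1 held 38.7%, 26.3% and 30% of it in the ESC replicates and 8.76%, 5.45% and 12.5% in the EpiLC replicates, without overlap, whereas Ifitm3 held 13.7% to 25.1% and 17.4% to 30%, with overlap. The sum itself was 1120 to 1780 TPM in ESCs and 516 to 639 TPM in EpiLCs. Reads could be told apart between Ifitm1 and Ifitm3, as only 0.485% and 0.498% of the 76-base words in their GENCODE transcripts occur exactly in another gene's transcripts, in both cases Gm7676. For Ifitm2 this share was 41.7%, all with transcripts named Gm, so its counts are uncertain. For the other 6 germ cell factors it was 0%. The more distant relatives Ifitm5 and Ifitm7 were at 0.470 to 1.60 and 0.620 to 3.31 TPM over all libraries and did not pass the test (-0.42, adjusted p = 0.508, and 1.05, adjusted p = 0.0594), although Ifitm7 passed without ESC replicate 3 (adjusted p = 0.0391) and with limma on either TPM scale (0.0231 and 0.0357).

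**Figure D3:**
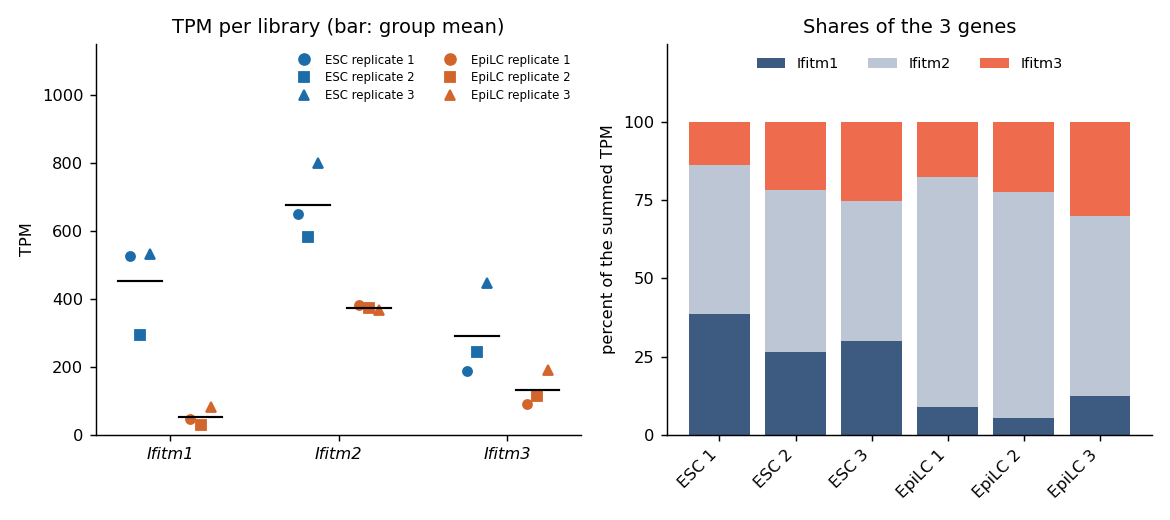
Left, TPM of Ifitm1, Ifitm2 and Ifitm3 in every library with a bar for each group mean. Right, the percent of their summed TPM that each gene holds per library, where the share of Ifitm1 is 26.3% or more in ESC libraries and 12.5% or less in EpiLC libraries.

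Ordered by mean TPM in ESCs, the genes were Ifitm1 (451), Ifitm3 (292), Kit (41.3), Tfap2c (36.5), Dnd1 (16.7), Prdm1 (13), Prdm14 (9.69) and Nanos3 (3.28). The ranges of Ifitm1 and Ifitm3, of Kit and Tfap2c, of Dnd1 and Prdm1 and of Prdm1 and Prdm14 overlapped between libraries. Within each ESC library, however, Ifitm1 was above Ifitm3, Dnd1 above Prdm1 and Prdm1 above Prdm14, while Kit and Tfap2c changed places, Tfap2c being the higher in replicate 1. In EpiLCs the order was Ifitm3 (132), Ifitm1 (51.2), Dnd1 (9.21), Kit (7.49), Tfap2c (2.42), Prdm1 (0.803), Nanos3 (0.333) and Prdm14 (0.0967). Only Dnd1 and Kit, among neighbours in this order, overlapped, and Dnd1 was the higher in each library. Tfap2c, Prdm1, Nanos3 and Prdm14 were each below 3 TPM in every EpiLC library, and Ifitm1 and Ifitm3 were the only genes of the 8 above 10 TPM there.

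Replicates differed in a similar way for several of the genes. ESC replicate 3 was the highest ESC library for 7 of the 8 and EpiLC replicate 3 the highest EpiLC library for 6 of the 8, as it was for 33.9% and 31.4% of all tested genes. The summed naive ESC markers were likewise highest in replicate 3, at 1940 TPM against 1460 and 1530 TPM in ESCs and at 67.3 TPM against 47.1 and 48.0 TPM in EpiLCs. The EpiLC difference came mainly from Nanog (7.72, 5.95 and 22.5 TPM), while Klf4, Tbx3 and Tfcp2l1 were highest in EpiLC replicate 2. EpiLC replicate 3 also held the most primitive streak RNA (50 against 9.10 and 9.33 TPM). Dppa3, another gene of germ cells and naive ESCs, was at 46.2, 40.3 and 129 TPM in ESCs and at 7.43, 9.91 and 25.8 TPM in EpiLCs. Its replicate 3 was more than 2 times the other libraries in both groups. In the other direction, ESC replicate 2 was the lowest ESC library for 5 of the 8, namely Tfap2c, Prdm14, Kit, Dnd1 and Ifitm1, as it was for 37.6% of all tested genes. All 15 fibroblast markers were highest in that library. Without it, 8 of 8 germ cell factors still fell, the log2 fold changes running from -6.89 for Prdm14 to -0.99 for Dnd1.

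**Figure D4:**
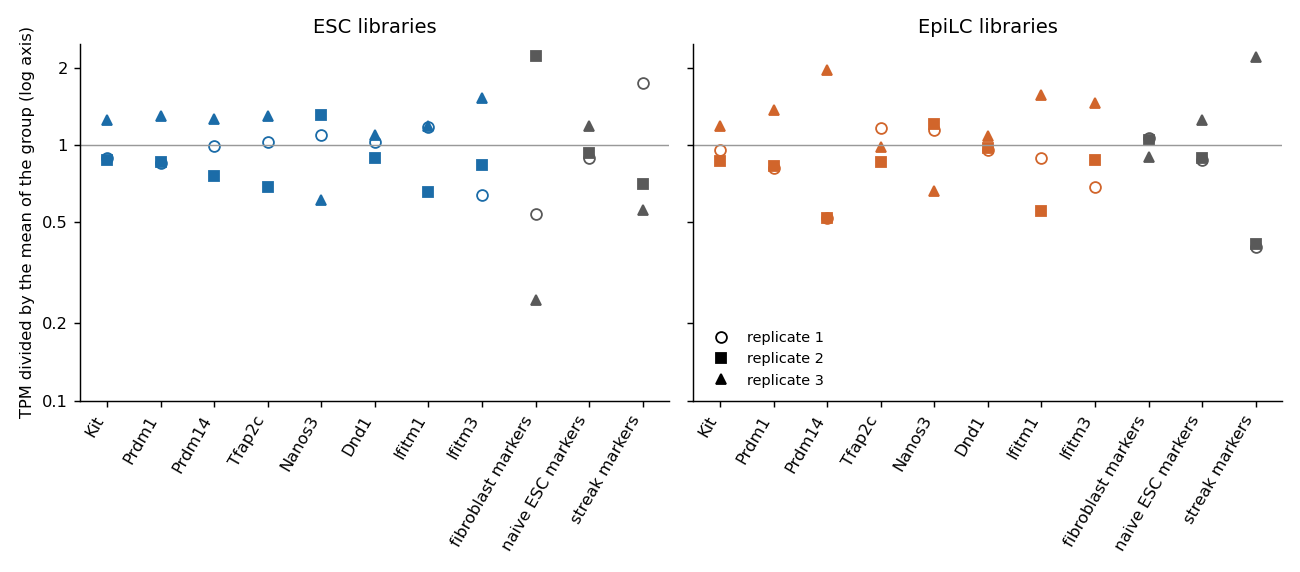
TPM of each germ cell factor, and summed TPM of 15 fibroblast, 6 naive ESC and 8 primitive streak markers (grey), divided by the mean of its group and shown per replicate on a log axis for ESCs (left) and EpiLCs (right). Replicate 3 is the highest ESC library for 7 of the 8 factors and for the naive markers, while the fibroblast markers are highest in ESC replicate 2.

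Promoters of Prdm1 and Nanos3 are shown as examples with many and with few CG dinucleotides, the sites of DNA methylation. The windows cover the same stretch around a RefSeq start (GRCm38.p6), at chr10:44458719-44458998 for Prdm1 and chr8:84176523-84176802 for Nanos3, both on the minus strand, and capitals mark CG. The Prdm1 start lies well inside the gene span given above, so it is an internal start, while that of Nanos3 is the end of its span.
Prdm1: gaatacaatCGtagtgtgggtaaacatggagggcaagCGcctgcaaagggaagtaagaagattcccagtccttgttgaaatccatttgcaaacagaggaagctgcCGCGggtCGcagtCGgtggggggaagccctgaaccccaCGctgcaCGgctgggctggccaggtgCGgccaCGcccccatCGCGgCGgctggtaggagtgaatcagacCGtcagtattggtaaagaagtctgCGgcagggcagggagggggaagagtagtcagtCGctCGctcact
Nanos3: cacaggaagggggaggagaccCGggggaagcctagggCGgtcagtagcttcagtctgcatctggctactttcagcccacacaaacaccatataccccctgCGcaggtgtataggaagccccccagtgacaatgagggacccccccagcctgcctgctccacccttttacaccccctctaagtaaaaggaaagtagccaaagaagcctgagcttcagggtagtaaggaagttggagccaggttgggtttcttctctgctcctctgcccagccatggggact
The Prdm1 stretch holds 17 CG and the Nanos3 stretch 3. Windows of 300 bases were given for 5 of the 8 genes. Over them, the number of CG was 20 for Prdm1, 20 and 21 for the 2 starts of Kit, 5 each for Ifitm1 and Ifitm3 and 3 for Nanos3, beside a median of 7 (interquartile range 3 to 20) over all 32851 windows. Methylation was not measured, and its part in the falls of these genes was not tested. The AP-2 site GCCNNNGGC, which is the same on both strands, occurred in the windows of Kit (GCCCCGGGC) and Nanos3 (GCCTAGGGC) and in 16.6% of all windows. The E-box CACGTG, the same on both strands, occurred in none of the 5 genes' windows and in 7.15% of all windows.

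The genes whose profile over the 6 libraries was most like that of each factor were found by the root mean square distance between log2 CPM values centred on each gene's mean, among the 9203 tested genes averaging 10 CPM or more. For Prdm1 they were AU018091 (distance 0.13) and Phf11d (0.22), and for Tfap2c Socs3 (0.16), a feedback inhibitor of LIF signalling, and Upp1 (0.25). For Prdm14 they were Lefty2 (0.37), a Nodal antagonist, and Esrrb (0.39), a naive pluripotency factor, neither as close as the best matches of the other genes. For Kit they were Triml2 and Gpa33 (0.11 each), for Nanos3 H19 (0.17) and Sh3pxd2a (0.19), and for Dnd1 Ubald2 and Acad11 (0.05 each). For Ifitm1 they were Gli2 (0.27) and Fbxo15 (0.31), and for Ifitm3 Dapp1 and Xlr5a (0.28 each). H19, the imprinted RNA closest to Nanos3, fell by 2.80 on the log2 scale from a mean of 76.1 TPM. Of the 28 pairs among the 8 factors, Prdm1 and Tfap2c were closest (0.34), followed by Dnd1 and Ifitm3 (0.45), and Prdm14 and Dnd1 were farthest apart (2.63). These distances describe 6 libraries in 2 groups, and the prior count of 2 draws in the changes of low genes such as Prdm14.

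The ligand genes Bmp2, Bmp4 and Wnt3 fell in EpiLCs, while BMP receptor genes rose or did not pass the test, apart from Bmpr2 (-0.69, adjusted p = 0.0470). The Bmpr2 call is weak, as the groups overlapped (9.66 to 16.8 TPM in ESCs, 6.55 to 10.7 TPM in EpiLCs) and it was lost in 7 of 14 alternatives. Of 12 genes for BMP and WNT ligands, receptors and transducers, 4 were lower, 3 were higher and 5 did not pass the test, with a median log2 fold change of -0.24. Bmp4, the main inducer of germ cells in the embryo, fell by 3.36 on the log2 scale (SE 0.26, adjusted p = 0.000207), from 36.4, 47.7 and 27.0 TPM to 4.24, 2.75 and 3.97 TPM. Bmp2 fell by 4.36 (SE 0.56, adjusted p = 0.00124) and Wnt3 by 3.35 (adjusted p = 0.00269), each to under 4 TPM in every EpiLC library. Without EpiLC replicate 3 these were -4.99 and -3.98. Bmp2 (22.2, 9.40 and 9.54 TPM) and Wnt3 (30.4, 15.7 and 12.0 TPM) were both highest in ESC replicate 1, as were the summed markers of primitive streak (474, 190 and 150 TPM), a list that holds Wnt3 and T, and of primitive endoderm (73.7, 49.5 and 40.2 TPM). In EpiLCs these sums were 9.10 to 50 and 11.2 to 11.5 TPM. The part of such cells in these falls was not tested. Bmp8b was at 1.13 to 2.28 TPM over all libraries and did not pass the test (0.48, adjusted p = 0.130). In contrast, the receptor genes Bmpr1a (0.43, SE 0.07, adjusted p = 0.00357) and Bmpr1b (1.29, SE 0.21, adjusted p = 0.00345) rose, as did the shared transducer gene Smad4 (0.35, adjusted p = 0.00795). Bmpr1a was at 38.3 to 46.1 TPM in ESCs and at 59.0 to 60.6 TPM in EpiLCs. T, through which WNT signals reach Prdm1 and Prdm14 in germ cell precursors, was at 180, 73.0 and 40.0 TPM in ESCs and at 0.870, 0.690 and 30.7 TPM in EpiLCs, and its log2 fold change of -3.23 did not pass the test (SE 1.36, adjusted p = 0.0925). It passed without EpiLC replicate 3 (-7.00, adjusted p = 0.00399) and with limma on log2(TPM + 1) (-4.14, adjusted p = 0.0246) and on log2(TPM + 0.1) (-4.82, adjusted p = 0.0251). Over the edgeR fits that left out 1 library, T ran from -7.00 to -2.45, with adjusted p up to 0.235.

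Fold changes of partners of the 8 factors were mostly below 2-fold. Of 11 partner genes 10 were tested, of which 5 were lower, 1 was higher and 4 did not pass the test, with a median log2 fold change of -0.29. Cbfa2t2, which encodes the co-repressor bound by PRDM14, fell by 0.70 on the log2 scale (SE 0.15, adjusted p = 0.00948), from 35.9, 32.5 and 48.4 TPM to 23.6, 26.0 and 25.1 TPM. It thus remained above 20 TPM in EpiLCs, where Prdm14 was near 0. Genes for Polycomb repressive complex 2, Eed (-0.99, SE 0.08, adjusted p = 0.000267), Suz12 (-0.60, adjusted p = 0.000610) and Ezh2 (-0.36, adjusted p = 0.0146), fell as well, Ezh2 with its call lost without EpiLC replicate 1 (adjusted p = 0.0677) or 2 (0.0603). Prmt5, whose arginine methyltransferase product binds PRDM1, was at 187 to 193 TPM in ESCs and 187 to 202 TPM in EpiLCs (-0.02, adjusted p = 0.787). Tle4, which encodes a Groucho co-repressor, was the partner gene that rose (0.30, SE 0.10, adjusted p = 0.0445), a call that was lost with RLE normalization (adjusted p = 0.0504) and in 5 of the 6 fits that left out a library.

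Of 12 pluripotency genes that germ cell precursors also express, 8 were lower and 2 were higher in EpiLCs, and 2 did not pass the test. Their median log2 fold change was -3.60. Of the 8 that fell, 4 (Esrrb, Klf4, Nanog and Tfcp2l1) are also on the naive ESC marker list used above to check the groups, and of the other 8 genes on the list 4 were lower, 2 were higher and 2 did not pass the test, with a median of -0.75. The largest falls on this list were those of Klf4 (-6.53, SE 0.24, adjusted p = 1.93e-05) and Esrrb (-6.44, SE 0.23, adjusted p = 1.83e-05). Dppa3 fell by 2.38 (SE 0.63, adjusted p = 0.0204), a call lost without EpiLC replicate 1 (adjusted p = 0.0697) or EpiLC replicate 2 (adjusted p = 0.0748). It was at -1.62 without ESC replicate 3 and at -3.11 without EpiLC replicate 3. Utf1 (1.13, SE 0.14, adjusted p = 0.00108) and Lin28a (0.68, SE 0.11, adjusted p = 0.00359), a regulator of let-7 processing that acts upstream of Prdm1 in germ cells, rose. Pou5f1 was at 1237 to 1418 TPM in ESCs and 1355 to 1574 TPM in EpiLCs and did not pass the test (0.07, adjusted p = 0.496).

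Of 12 genes of the formative epiblast or of restraint on the germ line, 7 were higher and 4 were lower, and 1 did not pass the test, with a median log2 fold change of 0.70. Of the 7, 4 (Otx2, Pou3f1, Dnmt3b and Fgf5) are also on the epiblast marker list used above to check the groups. The other 8 genes held no common direction, with 3 higher, 4 lower and 1 that did not pass the test, and a median of -0.01. On the whole list, 2 rather than 4 were lower without EpiLC replicate 2. Otx2, which limits entry to the germ line, rose from 50.8, 29.1 and 57.8 TPM to 178, 176 and 172 TPM (1.87, SE 0.23, adjusted p = 0.00110). Pou3f1 (4.07, SE 0.14, adjusted p = 1.66e-05) and the de novo methyltransferase gene Dnmt3b (2.54, SE 0.13, adjusted p = 5.89e-05) had the largest rises. Its cofactor gene Dnmt3l fell by 2.26 (SE 0.22, adjusted p = 0.000445). Of 3 genes for a complex that represses germ line genes in ESCs, Mga (-0.72, SE 0.15, adjusted p = 0.00837) and Max (-0.27, adjusted p = 0.0104, but 0.0532 without EpiLC replicate 2) fell and E2f6 rose (0.60, adjusted p = 0.00845).

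**Figure D5:**
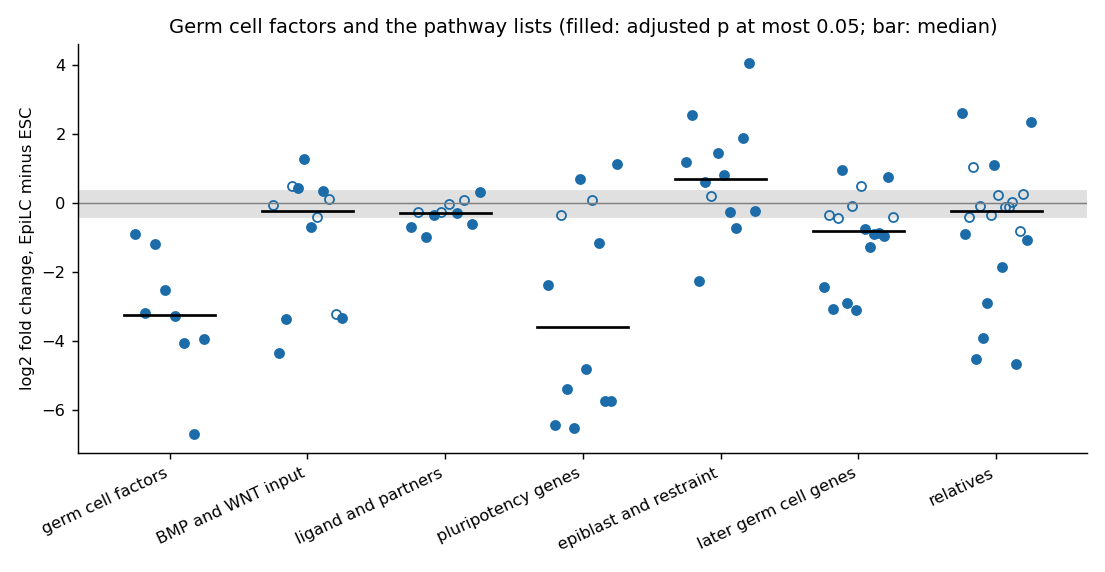
Log2 fold change from ESC to EpiLC of each tested gene in the germ cell factors and the 6 pathway lists, filled where the adjusted p is at most 0.05, with a bar for each median and the interquartile range of all tested genes in grey. Medians are -3.24 for the germ cell factors (with Prdm14 and Nanos3, which passed the filter only through ESC counts), -3.60 for the pluripotency genes (-0.75 without 4 that are also naive ESC markers) and 0.70 for the epiblast and restraint genes (-0.01 without 4 that are also EpiLC markers).

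Genes of later, migrating and gonadal germ cells were mixed. Of 18 such genes 16 were tested, of which 9 were lower, 2 were higher and 5 did not pass the test, with a median log2 fold change of -0.82. The counts were 5 lower without EpiLC replicate 1 or EpiLC replicate 2, and 1 higher without EpiLC replicate 2. Alpl, the alkaline phosphatase used to stain germ cells, was at 72.4, 59.0 and 83.0 TPM in ESCs and at 11.3, 12.6 and 16.9 TPM in EpiLCs. It fell by 2.45 on the log2 scale (adjusted p = 0.000218). The chemokine receptor gene Cxcr4, which guides migrating germ cells, fell by 3.08 (SE 0.37, adjusted p = 0.000916), and the meiotic gene Hormad1 by 3.11 (SE 0.34, adjusted p = 0.000652). Cxcl12, the ligand gene of that receptor, was at 28.9, 135 and 14.2 TPM in ESCs and 29.1 to 42.1 TPM in EpiLCs, highest in the library with the most fibroblast RNA, and did not pass the test (-0.36, adjusted p = 0.699). Without that library, ESC replicate 2, its direction turned and it was higher in EpiLCs (0.99, adjusted p = 0.0376). Ddx4, the germ line RNA helicase also called Vasa, rose (0.95, SE 0.17, adjusted p = 0.00491), from 13.1, 10.5 and 15.6 TPM to 25.2, 30.8 and 22.8 TPM, and Tdrd5, of the piRNA pathway, rose by 0.74 (SE 0.18, adjusted p = 0.0140), a call lost without EpiLC replicate 2 (0.67, adjusted p = 0.0567). Thus Ddx4 was higher in EpiLCs than each of the transcription factor genes Prdm1, Prdm14 and Tfap2c, which were below 3 TPM there. Dazl was at 3.22 to 3.84 TPM in ESCs and 2.49 to 2.97 TPM in EpiLCs and did not pass the test (-0.43, adjusted p = 0.0932).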

How the data were processed

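PolyA RNA of 3 ESC and 3 EpiLC samples was sequenced as strand-specific single-end reads of 76 nt. The authors trimmed adapters with cutadapt 1.16, mapped with STAR 2.5.2a and deposited RSEM 1.3.0 expected counts and TPM per mm10 RefSeq gene, where reads matching several genes are divided between them. Their notes also name DESeq2 1.16.1. Groups and replicate numbers came from the sample titles.

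Expected counts were rounded, scaled with edgeR's TMM and tested with its quasi-likelihood test (edgeR 4.0.16, R 4.3.3) after filterByExpr, without covariates, at an adjusted p of 0.05 over 14468 genes, and the fits were first tried on simulated data. Standard errors were taken from the F statistic. A level of 3 counts corresponds to 0.0855 to 0.177 CPM per library. Log2 CPM used a prior count of 2. Alternatives were DESeq2 1.42.0, RLE and upper-quartile scaling, no filter, at least 10 counts in every library, limma 3.58.1 on log2(TPM + 1) and log2(TPM + 0.1), the replicate number as a block, and leaving out each library.

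The genes, marker lists and pathway lists were chosen with earlier results of these data known. Genes named are the 8 factors with Ifitm2, per list the 2 largest significant rises and falls, Kitl, Dppa3, Otx2 and T, and the 2 nearest profiles of each factor. Other list genes named, such as Smad4, Suz12, Alpl, Cxcl12 and the further relatives, were picked after their values were seen. Promoters came from RefSeq (GRCm38.p6) and transcripts from GENCODE vM21. One list gene, Gcna, was not found under that symbol. Some list genes are counted but not reported here by name.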

Additional observations from a re-analysis of the deposited data

How the results depend on the processing

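Prdm1, Prdm14, Tfap2c, Nanos3, Kit, Dnd1 and Ifitm1 were significantly lower in EpiLCs under every alternative that could test them. With at least 10 counts in every library, Prdm14 and Nanos3 were not tested, and 6 of 6 remaining factors were lower. Ifitm3 ranged from -1.57 to -0.73 (log2) in the fits that left out 1 library, with adjusted p from 0.0313 to 0.136, and from -1.21 to -1.11 under the other alternatives, with adjusted p from 0.000677 to 0.0495. On log2(TPM + 1), a scale that understates changes of low genes, Prdm14 was at -3.26 and Nanos3 at -1.65. When 1 library was left out, 2100 to 3609 of all genes were lower and 2144 to 3572 higher, the lowest counts both without EpiLC replicate 1. In the same fits, 2 to 4 epiblast and restraint genes were lower (2 without EpiLC replicate 2), 5 to 8 later germ cell genes were lower (5 without EpiLC replicate 1 or 2), 1 to 3 later germ cell genes were higher (1 without EpiLC replicate 2), and 0 to 1 partner genes were higher. With RLE scaling, edgeR called 0 partner genes higher (1 at an unadjusted p under 0.05). With at least 10 counts in every library, 1 relative was higher, against 3, as low genes were no longer tested. Otherwise the cause was not tested. The sign turned for Cxcl12 without ESC replicate 2 (-0.81 to 0.99 when 1 library was left out), and for genes near 0 that passed no test, namely Prmt5 with upper-quartile scaling (0.01), with both limma scales (0.03 each) and without EpiLC replicate 1 or 2 (-0.06 to 0.01), Pou5f1 without ESC replicate 1 (-0.01 to 0.13) and Nanos1 without EpiLC replicate 3 (-0.15 to 0.02). The all-gene median (log2) was -0.018 to 0.057 in these settings.

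The replicate numbers gave correlations of deviations across genes of 0.00668, 0.186 and 0.17 between same-numbered libraries, of which only replicates 2 and 3 of each group correlated best with their own number. When the replicate number entered as a block, edgeR called 6085 genes, 8 of 8 factors were lower, and 83 of 84 results kept their direction and their side of the threshold or a count within 1.5 times, the exception being Cxcl12 (0.19, adjusted p = 0.847). Ifitm3 had an adjusted p of 0.000677 (edgeR) with the block.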

Other observations

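Most tested markers of 3 other cell types that ESC cultures can hold were also lower in EpiLCs. The trophoblast and blood lists, given above, also held genes that rose. The summed TPM of 8 primitive endoderm markers was 73.7, 49.5 and 40.2 in ESC replicates 1, 2 and 3 and 11.2 to 11.5 in EpiLCs, and 6 of the 8 were significantly lower with edgeR. For 7 markers of 2-cell-like cells, of which 4 were tested and 4 were lower, it was 26.8, 16.0 and 8.52 in the ESC replicates and 1.06 to 1.48 in EpiLCs. For 8 primitive streak markers it was 474, 190 and 150 in the ESC replicates, and 7 of the 8 were lower. Of these genes, Tcstv3, Zscan4d, Mesp1 and Msgn1 had fewer than 10 counts in every EpiLC library. They passed the low-count filter only through their ESC counts, so a fall was the only change that could be called for them. All 3 sums were highest in ESC replicate 1, unlike those of the fibroblast and naive markers. The trophoblast sum was highest there as well, at 147 TPM against 63.6 and 66.5 TPM in ESC replicates 2 and 3.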
